A study of Mus musculus with 30 samples.

Results

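The 8 genes described here encode myosin light chains of striated muscle (Mylpf, Myl2, Myl1, Myl3 and Myl6b) and kinases of the myosin light chain kinase family (Mylk2, Mylk3 and Mylk4). They were chosen by symbol, as 8 of the 36103 genes of the count table. RNA was sequenced in 30 libraries of 4 organs (gastrocnemius muscle, diaphragm, heart, liver) from male mice of 5 weeks on the 129Pas background. The Mtm1-/y mice carry a germline knock-out of the X-linked gene for myotubularin, a phosphoinositide phosphatase, so that every cell of the animal lacks it, and the WT mice were their littermates. Neither genotype received a treatment. There were 4 libraries per genotype for gastrocnemius and for heart. The diaphragm had 4 WT libraries and 3 from Mtm1-/y mice, numbered 1, 2 and 4, and the liver had 3 WT libraries and 4 from Mtm1-/y mice.

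Each head of a sarcomeric myosin heavy chain carries a regulatory and an essential light chain on its neck. Mylpf is the regulatory light chain of fast fibres, and Myl2 is that of slow fibres and of the cardiac ventricle. Myl1 gives the essential light chains of fast fibres from alternative first exons, Myl3 is the essential light chain of slow fibres and the ventricle, and Myl6b is a further essential light chain found in slow and in developing skeletal muscle. Phosphorylation of the regulatory light chain modulates the force that a given calcium signal produces. In skeletal muscle that phosphate is placed by Mylk2, a kinase switched on by calcium and calmodulin, and in cardiac muscle by Mylk3. Mylk4 is a less studied kinase of the same family.

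Total counts ran from 24873817 to 44289343 per library. Levels are given in CPM, counts per 1000000 counts of the library. Mtm1 itself was at 18.8 to 20.6 CPM in WT and 3.98 to 5.33 CPM in Mtm1-/y gastrocnemius, and the genotypes did not overlap in any of the 4 tissues, although the fall passed in the striated tissues and not in the liver (edgeR adjusted p = 0.365). CPM of Mtm1, of the members and of every mean ± SD are scaled within a tissue by TMM factors. For other genes, values of single libraries, ranges and summed levels are fractions of the library total, so such a gene's mean can lie outside its range. Myh6, the main heavy chain of the adult mouse heart, was at 21875 to 29515 CPM in heart libraries and at most at 321 CPM in the other tissues. Myh4, the heavy chain of the fastest fibres, was at 26416 to 55292 CPM in gastrocnemius libraries and at most at 5285 CPM elsewhere. Albumin (Alb), a liver product, was between 284 and 31876 CPM in the diaphragm libraries. The heart library WT replicate 4 stood apart in atrial genes, and the diaphragm library Mtm1-/y replicate 4 stood apart in developmental myosin genes. Their effect on the members is given beside the values.

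The members lie on 8 chromosomes (GRCm38, GENCODE M21). The regulatory light chains are Mylpf (ENSMUSG00000030672, chr7:127208890-127214298, + strand, 1062 exonic bases) and Myl2 (ENSMUSG00000013936, chr5:122100951-122113472, + strand, 1950 exonic bases). The essential light chains are Myl1 (ENSMUSG00000061816, chr1:66924295-66945404, - strand, 2074 exonic bases), Myl3 (ENSMUSG00000059741, chr9:110741861-110769798, + strand, 2044 exonic bases) and Myl6b (ENSMUSG00000039824, chr10:128494157-128498685, - strand, 1847 exonic bases). The kinases are Mylk2 (ENSMUSG00000027470, chr2:152911352-152923068, + strand, 2951 exonic bases), Mylk3 (ENSMUSG00000031698, chr8:85324303-85386345, - strand, 4283 exonic bases) and Mylk4 (ENSMUSG00000044951, chr13:32700834-32783954, - strand, 7689 exonic bases).

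Sequence just upstream of a RefSeq start site is shown for 5 members, Mylpf and Myl1 because they fell together in the gastrocnemius, and Myl3, Myl6b and Mylk4 because their genotypes did not overlap in the diaphragm. The table of RefSeq promoters (GRCm38.p6) held 7 of the 8 members and no entry for Mylk2. Up to 250 upstream bases were read and cut back where they met an annotated exon. Capitals mark matches on either strand to 4 motifs, the E-box CANNTG, which myogenic factors such as MyoD bind, the MCAT element CATTCC, the CArG box and the MEF2 site. Of the 32851 windows of 250 bases in the table, 66.2% held an E-box, 12.6% an MCAT element, 1.47% a CArG box and 0.508% a MEF2 site.
Mylpf, chr7:127211358-127211607, + strand: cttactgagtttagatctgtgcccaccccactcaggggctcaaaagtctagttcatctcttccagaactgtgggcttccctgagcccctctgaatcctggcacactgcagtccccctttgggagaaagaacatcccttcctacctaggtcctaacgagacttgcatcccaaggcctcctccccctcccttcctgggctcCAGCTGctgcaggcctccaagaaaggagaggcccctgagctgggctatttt
Myl1, chr1:66945144-66945290, - strand: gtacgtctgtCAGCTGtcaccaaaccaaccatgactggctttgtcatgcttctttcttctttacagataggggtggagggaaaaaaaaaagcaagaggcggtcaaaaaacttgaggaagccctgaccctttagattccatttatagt
Myl3, chr9:110763428-110763645, + strand: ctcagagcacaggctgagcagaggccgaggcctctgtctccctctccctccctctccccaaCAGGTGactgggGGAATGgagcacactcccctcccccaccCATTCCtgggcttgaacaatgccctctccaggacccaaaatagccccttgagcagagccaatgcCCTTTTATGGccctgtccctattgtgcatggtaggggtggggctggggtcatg
Myl6b, chr10:128498686-128498935, - strand: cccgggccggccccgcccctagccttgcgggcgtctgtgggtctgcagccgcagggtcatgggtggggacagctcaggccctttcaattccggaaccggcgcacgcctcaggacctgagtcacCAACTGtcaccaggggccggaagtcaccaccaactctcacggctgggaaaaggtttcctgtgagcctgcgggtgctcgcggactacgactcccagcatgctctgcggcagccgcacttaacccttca
Mylk4, chr13:32783965-32784214, - strand: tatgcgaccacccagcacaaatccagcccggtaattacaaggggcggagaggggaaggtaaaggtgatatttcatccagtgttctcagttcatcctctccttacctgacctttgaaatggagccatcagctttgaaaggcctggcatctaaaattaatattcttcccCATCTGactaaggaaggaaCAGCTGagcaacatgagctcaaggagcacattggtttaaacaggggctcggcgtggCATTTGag
The fast pair Mylpf and Myl1 had 1 E-box each, with the letters CAGCTG in both, and no other match. The same letters stood in Mylk4 and in a window of Myl2 that is not shown. Their share of all windows was not computed. The window of Myl1, of 147 bases, lies between exons of different Myl1 transcripts. The windows of Mylpf and Myl3 also lie within the annotated spans of their genes. Myl3 was the member with matches to 3 motifs, as it held 1 E-box, 2 MCAT elements and 1 CArG box in 218 bases. Mylk4 had 3 E-boxes and Myl6b had 1. A match is a stretch of letters and was not examined for binding.

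In WT mice the tissues held different members of each pair. Levels compared between genes are in RPKM, which divides the count by the exonic length and the TMM-scaled library size over all 30 libraries. Mylpf was the highest of the 8 in the gastrocnemius at 19543 ± 1450.0 RPKM (SD, n = 4). It was at 3671 ± 880.5 RPKM in the diaphragm (n = 4), at 3.22 ± 0.673 RPKM in the liver (n = 3) and at 1.26 ± 0.0670 RPKM in the heart (n = 4). Myl2, its slow and ventricular counterpart, ran the other way at 2718 ± 1220.5 RPKM in the heart, 359 ± 97.2 in the diaphragm and 282 ± 117 in the gastrocnemius, with 0 to 1 counts in WT liver. Myl2 did not differ detectably between the skeletal muscles, where gastrocnemius against diaphragm gave a log2 fold change of -0.35 (95% interval -1.10 to 0.40, edgeR adjusted p = 0.4138). With library totals it was -0.83 and passed (adjusted p = 0.04371).

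The essential light chains followed the same split. Myl1 was at 2298 ± 282 RPKM in the gastrocnemius and 407 ± 96.3 RPKM in the diaphragm, against 4.06 ± 1.88 RPKM in the heart and 0.299 ± 0.107 RPKM in the liver. Myl3 was at 1229 ± 420.3 RPKM in the heart, 162 ± 51.0 in the gastrocnemius and 105 ± 13.9 in the diaphragm, and the difference between the last pair did not pass (log2 fold change 0.63, 95% interval -0.06 to 1.32, edgeR adjusted p = 0.1129). Myl6b was the lowest of the light chains in both skeletal muscles, at 15.5 ± 9.92 RPKM in the gastrocnemius and 6.87 ± 1.82 in the diaphragm (adjusted p = 0.1008 for their difference in edgeR, 0.04287 without Mtm1-/y diaphragm replicate 4 and 0.02387 without WT gastrocnemius replicate 3), and it was near 1 RPKM in the heart (1.17 ± 0.0579) and the liver (0.805 ± 0.259). For the skeletal muscles the edgeR adjusted p of Myl6b ran up to 0.2987 over the 15 libraries left out in turn.

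The skeletal and cardiac kinases had opposite orders. Mylk2 was at 531 ± 119 RPKM in the gastrocnemius, 98.5 ± 41.1 in the diaphragm and 0.143 ± 0.0800 in the heart. Mylk3 had 147 ± 26.8 RPKM in the heart, 6.21 ± 1.03 in the diaphragm and 0.255 ± 0.0415 in the gastrocnemius. Mylk4 was the kinase found in all 3 striated tissues, at 199 ± 52.6 RPKM in the gastrocnemius, 29.2 ± 6.08 in the heart and 20.4 ± 8.09 in the diaphragm. The difference in Mylk4 between heart and diaphragm did not pass after adjustment (log2 fold change 0.55, 95% interval 0.01 to 1.08, edgeR unadjusted p = 0.04531, adjusted p = 0.0839). Without WT diaphragm replicate 2 the value was 0.75 and passed (adjusted p = 0.02773). Over the 15 libraries left out in turn it ran from 0.35 to 0.75 and the edgeR adjusted p up to 0.2056.

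**Figure D1:**
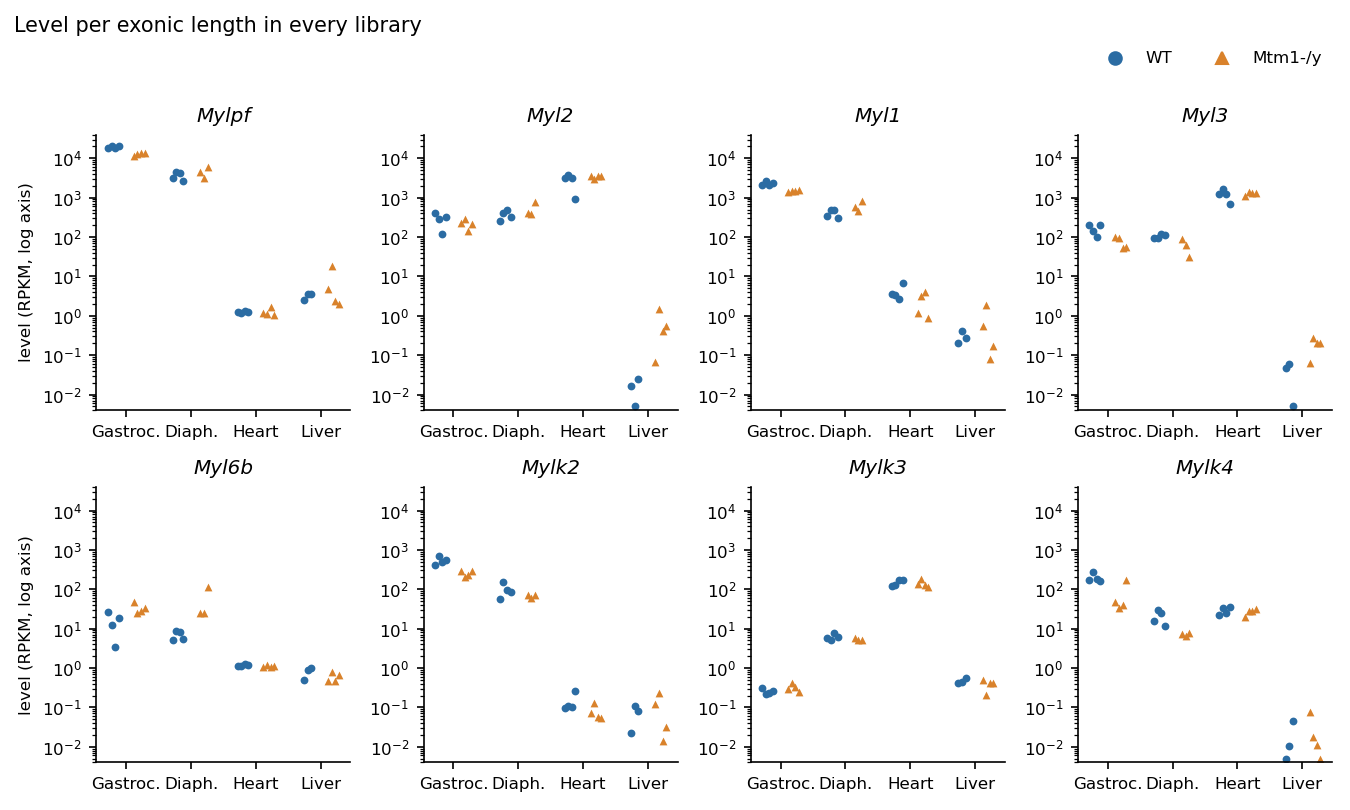
RPKM on a log axis for the 8 members in every library, with WT as circles and Mtm1-/y as triangles, by tissue on the x axis. The 4 values at 0, all in liver, are drawn at 0.005. Mylpf, Myl1 and Mylk2 are highest in the gastrocnemius and lowest in heart or liver, while Myl2, Myl3 and Mylk3 are highest in the heart.

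A gene passed in edgeR at an adjusted p under 0.05, and folds between tissues are on the log2 scale. Between WT heart and WT gastrocnemius all 8 members passed, where 68.9% of the 16627 genes tested did. Heart against gastrocnemius gave -13.92 for Mylpf (SE 0.20), -11.83 for Mylk2 (SE 0.33) and -9.15 for Myl1 (SE 0.51). Myl6b and Mylk4 were also lower in the heart, by -3.73 (SE 0.45) and -2.77 (SE 0.43). The members higher in the heart were Mylk3 at 9.15 (SE 0.24), Myl2 at 3.26 (SE 0.40) and Myl3 at 2.91 (SE 0.30). Between heart and diaphragm 7 of 8 members passed against 48.3% of genes, with Mylpf at -11.47 (SE 0.32) and Mylk3 at 4.59 (SE 0.20).

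Between gastrocnemius and diaphragm 5 of 8 members passed, against 54.2% of genes. The 12 hepatocyte markers summed to 575 to 44437 CPM in WT diaphragm, to 31.9 to 121 CPM in WT gastrocnemius and to 157118 to 169168 CPM in WT liver. Liver-enriched genes were left out only in fits within a tissue. The part of liver RNA in the comparisons with the diaphragm was not tested. Mylk4, Myl1, Mylk2 and Mylpf were higher in the gastrocnemius, by 3.29 (SE 0.50), 2.49 (SE 0.21), 2.43 (SE 0.27) and 2.41 (SE 0.21) on the log2 scale. Mylk3, the cardiac kinase, was higher in the diaphragm (log2 fold change of gastrocnemius against diaphragm -4.60, SE 0.18). In WT diaphragm Mylk3 measured 29.0, 25.8, 38.4 and 30.3 CPM, from 939 to 1178 counts. In WT gastrocnemius the same gene measured 1.22, 0.845, 0.929 and 1.01 CPM, so that the 2 muscles did not overlap. The 10 cardiomyocyte markers summed to 306 to 766 CPM in WT diaphragm and to 54289 to 75472 CPM in WT heart. In WT diaphragm most of that sum was Actc1 (122 to 492 CPM), the cardiac actin, and Myh6 (151 to 269 CPM, against 21875 to 29515 CPM in WT heart). The other 8 markers reached at most 4.45 CPM there, among them Tnni3, the cardiac troponin I, at most 1.75 CPM, and Nkx2-5 was at 0. The part of cardiac RNA in the Mylk3 values was not tested. The 3 tissue comparisons share libraries, and each was fitted on a pair of tissues.

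In the gastrocnemius the fast light chains and the skeletal kinase fell in Mtm1-/y mice. Of the 8 members 4 passed and all 4 were lower, where 29% of the 15456 genes tested passed and 14.9% passed as lower. These were Mylpf, Myl1, Mylk2 and Myl3. In a fit of all 30 libraries Myl3 alone passed (adjusted p = 0.03248 in edgeR), while Mylpf, Myl1 and Mylk2 kept log2 fold changes of -0.62, -0.62 and -1.04 with adjusted p of 0.3476, 0.4777 and 0.06477. The median log2 fold change over the 8 was -0.61, and over all genes it was 0.02. Of the genes that passed 48.5% were higher. When libraries were scaled by their totals alone 8294 genes passed, that share was 92.2% and the median over all genes moved to 0.35. The median over the 8 was then -0.27, with Mylpf and Myl1 at -0.27 each. The same 4 members passed as lower, with Myl6b and Mylk3 passing as higher. Among all genes tested the spread between libraries was smallest in this muscle, with a common biological coefficient of variation of 0.171, against 0.394 in the diaphragm and 0.208 in the heart. The tissue was taken whole, so fewer fibres of a type and less RNA per fibre cannot be told apart.

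Mylpf, the fast regulatory light chain, measured 18298, 20508, 17608 and 19711 CPM in the WT gastrocnemius libraries. The Mtm1-/y libraries measured 11304, 12286, 13138 and 13300.3 CPM. Every Mtm1-/y library was below every WT library, and the means were 19031 ± 1318 and 12507 ± 917 CPM (SD, n = 4 each), a log2 fold change of -0.61 (SE 0.10, edgeR adjusted p = 0.001618).

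Myl1, the fast essential light chain, fell by the same amount. Its WT libraries measured 4007, 5129, 4000.4 and 4348 CPM, and its Mtm1-/y libraries 2735, 2877, 2896 and 2963 CPM, with no overlap (log2 fold change -0.61, SE 0.10, edgeR adjusted p = 0.001591). The Mtm1-/y libraries lay close together, with an SD of 95.7 CPM against 530.5 CPM in WT.

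Mylk2, the kinase that phosphorylates the fast regulatory light chain, was at 1096, 1861, 1326 and 1464 CPM in WT and at 811, 573, 631 and 809 CPM in Mtm1-/y gastrocnemius. The genotypes did not overlap, and the log2 fold change was -1.03 (SE 0.17, edgeR adjusted p = 0.002084). Of the 4 that passed, Mylk2 and Myl3 also exceeded an absolute log2 fold change of 1, as 6.63% of genes did. With library totals these 2 were at -0.68 and -0.73. The genotypes did not overlap in 3 of the 8 members (Mylpf, Myl1 and Mylk2, each lower in Mtm1-/y), against 30.7% of genes in either direction and 16% as lower.

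Myl3, the slow essential light chain, was at 383, 261, 192 and 381 CPM in WT libraries and at 193, 182, 98.7 and 108 CPM in Mtm1-/y libraries. WT replicate 3 lay just below the highest Mtm1-/y library, and the gene passed with a log2 fold change of -1.06 (SE 0.27, edgeR adjusted p = 0.01673). Pth1r, on the opposite strand, shares 95 exonic bases with Myl3 and had 5841 counts in all 30 libraries together.

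Myl2, the slow regulatory light chain, did not pass. Its WT libraries measured 713, 512, 218 and 576 CPM and its Mtm1-/y libraries 408, 518, 265 and 387 CPM, with a log2 fold change of -0.36 (95% interval -1.06 to 0.35, edgeR adjusted p = 0.4276). In both genotypes replicate 3 was the lowest library. Myh7, the slow heavy chain, was lowest in the same libraries, at 404 CPM in WT replicate 3 against 896 to 1611 in the other WT libraries, and at 260.1 CPM in Mtm1-/y replicate 3 against 951 to 1074 in the others. Its part in the Myl2 and Myl3 values was not tested. Without WT replicate 3 the log2 fold change of Myl2 was -0.61 (adjusted p = 0.06178). Over the 8 libraries left out in turn it ran from -0.61 to -0.14 and the edgeR adjusted p up to 0.773.

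Myl6b, the remaining essential light chain, had values of 45.7, 21.4, 5.87 and 31.7 CPM in WT and of 80.9, 43.6, 47.1 and 57.9 CPM in Mtm1-/y gastrocnemius. WT replicate 1 was the only WT library inside the Mtm1-/y range. Its log2 fold change of 1.13 (SE 0.47) did not pass (edgeR adjusted p = 0.09846), and without WT replicate 1 it was 1.54 and passed (adjusted p = 0.04599). Over the 8 libraries left out in turn the value ran from 0.79 to 1.54 and the edgeR adjusted p from 0.04599 to 0.2154.

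Mylk4 divided the Mtm1-/y libraries. WT libraries measured 1238, 1957, 1296 and 1129 CPM. Mtm1-/y replicates 1, 2 and 3 measured 341, 238 and 291 CPM, while replicate 4 measured 1256 CPM, inside the WT range. A log2 fold change of -1.40 (SE 0.49) did not pass (edgeR adjusted p = 0.05679), and without Mtm1-/y replicate 4 it was -2.27 (adjusted p = 0.0003196). Over the 8 libraries left out in turn the value ran from -2.27 to -1.15 and the edgeR adjusted p up to 0.1418. The same library was at 809 CPM in Mylk2, next to replicate 1 at 811 CPM. It had the highest level of Myh3, the embryonic heavy chain, at 289.6 CPM against 66.3 to 111 CPM in the other Mtm1-/y libraries. Mylk3, near 1 CPM in this muscle (1.00 ± 0.163 in WT and 1.27 ± 0.289 in Mtm1-/y, n = 4 each), did not pass (adjusted p = 0.2966).

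**Figure D2:**
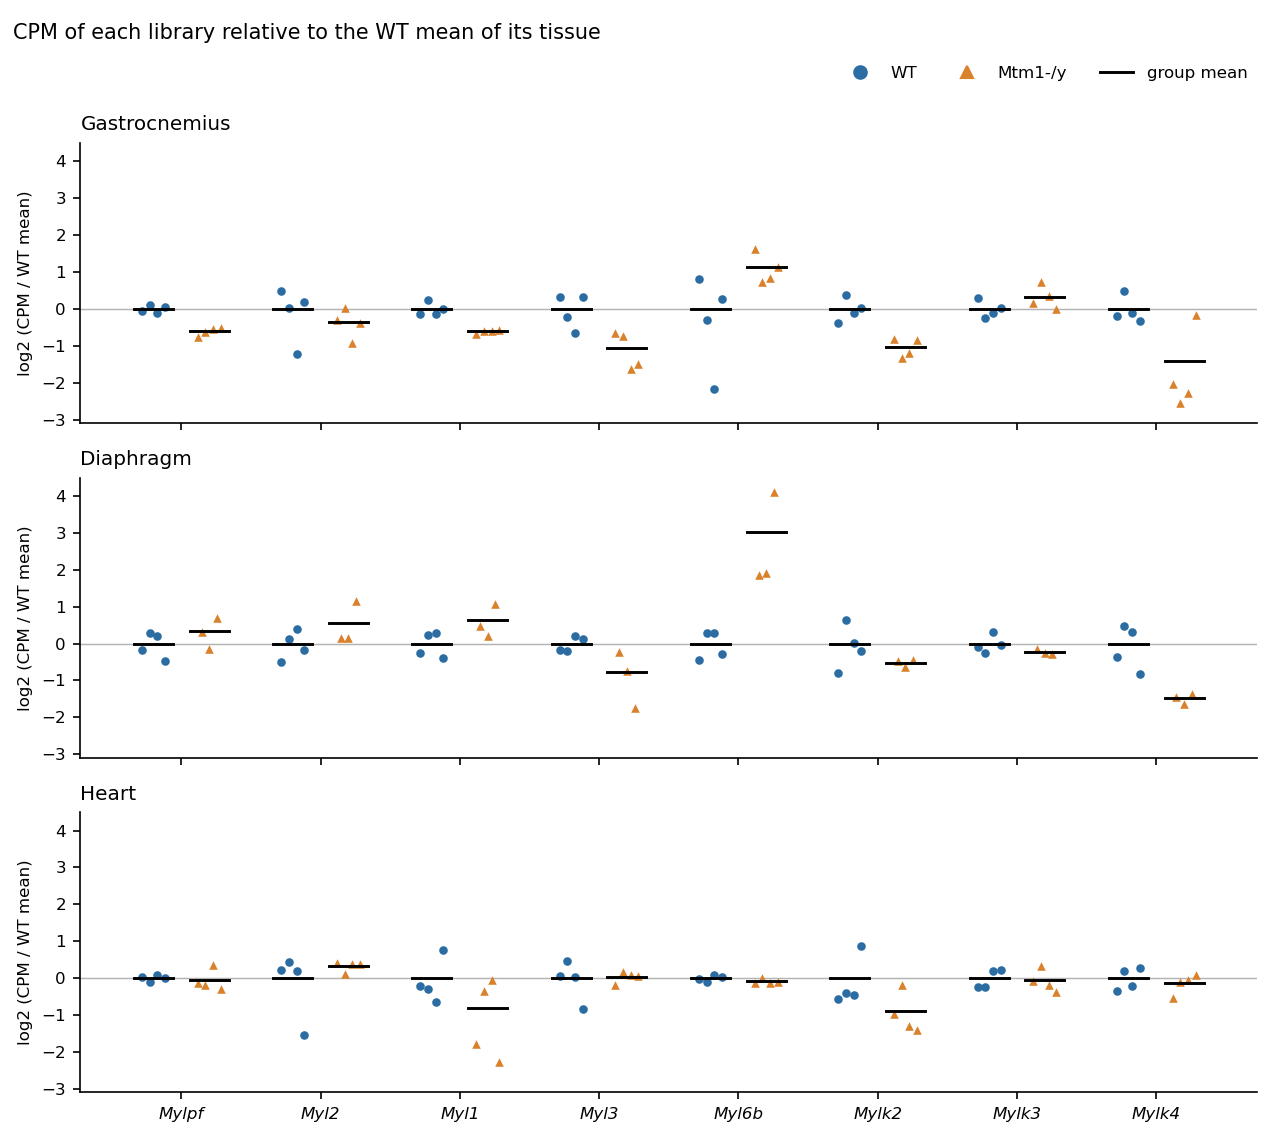
CPM of each library divided by the WT mean of its tissue, on a log2 scale, for the 8 members in 3 tissues. Circles are WT, triangles are Mtm1-/y and black bars are group means. In the gastrocnemius all Mtm1-/y triangles of Mylpf, Myl1 and Mylk2 lie below all WT circles, and Mylk4 replicate 4 (1256 CPM) lies among the WT libraries.

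Other fast fibre genes of the gastrocnemius moved as the fast light chains did. Of a list of 15 fast fibre genes 13 fell and 2 rose, with a median log2 fold change of -0.75. Of all genes tested 29% passed and 14.9% passed as lower. The 2 that rose were the heavy chains Myh1 (log2 fold change 1.08) and Myh2 (0.93), of the less fast IIX and IIA fibres, whereas Myh4 fell from 56161 ± 6346 to 28038 ± 5094 TMM-scaled CPM. With library totals 13 of the 15 also fell and 2 rose, with a median of -0.41, where 92.2% of the 8294 genes that passed were higher. On the TMM scale Actn3, the fast fibre alpha-actinin, fell from 10675 ± 1115 to 5652 ± 529 CPM, and Tnnt3, the fast troponin T, from 26526 ± 2815 to 15367 ± 773 CPM (n = 4 each). Of 12 slow fibre genes 4 rose and none fell (median 0.11), where 29% of all genes tested passed. Those 4 were Csrp3 (log2 fold change 2.39), Ankrd2 (1.85), Casq2 (0.97) and Mybpc1 (0.65), and of these Csrp3 and Ankrd2 are known as stretch-responsive genes of the Z-disc region rather than as contractile proteins of slow fibres. The rest of the slow list did not pass. Log2 fold changes were negative for Tpm3 (-0.81), Myh7 (-0.56), Atp2a2 (-0.55), Tnnc1 (-0.50), Tnni1 (-0.13) and Myh7b (-0.07). They were positive for Myoz2 (0.39) and Tnnt1 (0.29). With library totals 5 of the 12 slow fibre genes rose and none fell, where 8294 of the 15456 genes passed, 92.2% of them higher.

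Genes of immature fibres and of other cells also differed between the gastrocnemius groups, where 29% of all genes tested passed and 14.9% passed as lower. With library totals 8294 of the 15456 genes passed, 92.2% of them higher. Of 11 genes of immature or regenerating fibres 8 rose and 1 fell (median 1.77). The 1 that fell was Actc1, the cardiac actin, which is also made in young skeletal muscle, and since it held most of the list's reads (5346 to 6350 CPM of a summed 5439 to 6479 CPM in WT, and 401 to 2323 CPM in Mtm1-/y), the summed level went the other way. Myh3 rose, with 6.61 to 8.40 CPM in WT libraries against 66.3 to 289.6 CPM in Mtm1-/y ones. Of 7 macrophage markers 6 rose, with a summed level of 23.2 to 44.7 CPM in WT and 85.0 to 107 CPM in Mtm1-/y libraries. Of 8 white adipocyte markers 6 rose (summed level 459 to 752 CPM against 634 to 1128 CPM). Of 6 smooth muscle markers 2 fell, with library totals none fell and 1 rose, and their summed levels overlapped (243 to 349 CPM against 278 to 380 CPM). Hepatocyte markers were sparse, at 31.9 to 121 CPM summed in WT and 23.04 to 83.1 CPM in Mtm1-/y, and 2 of 11 tested fell while 1 rose, with library totals none and 1. Of the cardiomyocyte markers 4 of 10 were high enough to be tested, with 2 that rose (Tnnt2 and Tnni3) and 1 that fell (Actc1), and the defining Nkx2-5 was at 0 in both groups. The part of these cells and fibres in the members' values was not tested.

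The other light chains divided in both directions. Of 6 tested, 2 rose and 1 fell in Mtm1-/y gastrocnemius, where 29% of all genes tested passed. Myl4, the essential light chain of atria and of embryonic muscle, went from 4.90 ± 1.53 CPM up to 19.6 ± 5.54 CPM (log2 fold change 1.99, SE 0.27, edgeR adjusted p = 0.000759, n = 4 each). Myl12a, a light chain of non-muscle myosin, rose by 0.89 on that scale (SE 0.15), and Myl9, the smooth muscle regulatory light chain, fell (log2 fold change -0.86, SE 0.17). The summed level of the 7 genes was 201 to 273 CPM in WT and 325 to 384 CPM in Mtm1-/y libraries.

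Upstream of the kinases, Calm2 and Calm3, which encode calmodulin, fell in Mtm1-/y gastrocnemius with no overlap. Calm2 fell from 140.4 ± 12.6 to 88.7 ± 4.54 CPM and Calm3 from 384 ± 25.6 to 202 ± 9.41 CPM (n = 4 each, edgeR adjusted p of 0.000404 and 6.498e-05). Calmodulin is the calcium sensor that switches Mylk2 on. In the whole list of 10 other kinases and regulators 4 fell and 3 rose, where 29% of all genes tested passed. With library totals 3 fell and 5 rose, where 8294 of the 15456 genes passed, 92.2% of them higher. Mylk, the smooth muscle kinase, was among those that fell, at a log2 fold change of -0.47, a call lost with library totals (-0.13). Those that rose were the death-associated kinases Dapk1 (0.54), Dapk2 (0.81) and Dapk3 (0.32, not passing with DESeq2 size factors), while Cdc42bpa did not pass.

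The phosphatase that removes the phosphate from the regulatory light chain had folds below 0.5 on the log2 scale in all 7 of its genes. Ppp1cb, its catalytic subunit, had 492.6 ± 33.9 CPM in WT libraries and 357 ± 7.37 CPM in Mtm1-/y ones, a fall that library totals removed (log2 fold change -0.46, SE 0.07, edgeR adjusted p = 0.001147, n = 4 each). Its targeting subunit of striated muscle, Ppp1r12b, had 438 ± 32.6 and 460.0 ± 41.1 CPM and did not pass (adjusted p = 0.5706), while Ppp1r12a rose by 0.21 and the inhibitor Ppp1r14b by 0.37 on the log2 scale. Of 7 genes of this list 1 fell and 2 rose, where 29% of all genes tested passed. With library totals 4 rose and none fell, where 8294 of the 15456 genes passed, 92.2% of them higher.

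In the diaphragm none of the 8 members passed in edgeR, where 0.0119% of the 16796 genes tested did. At an unadjusted p under 0.05 there were 2 members, Myl6b and Mylk4, against 10.8% of genes, and the same 2 passed in DESeq2 and none in limma voom. The genotypes did not overlap in 3 members, against 9.97% of genes. Myl6b was higher in Mtm1-/y, as 5.4% of genes were, and Mylk4 and Myl3 were lower, as 4.57% were.

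Myl6b had the largest genotype difference of any member in the striated tissues. WT diaphragm libraries measured 10.8, 18.0, 17.9 and 12.0 CPM. The Mtm1-/y libraries measured 53.0, 55.0 and 254 CPM, each above every WT library. The edgeR log2 fold change was 3.04 (SE 0.60, adjusted p = 0.2649), and DESeq2 gave 3.05 with an adjusted p of 9.428e-06. Without Mtm1-/y replicate 4, the highest library, the log2 fold change in edgeR was 1.89 (adjusted p = 0.667).

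Mtm1-/y replicate 4 was at one end of its group for each light chain. It was the highest of the Mtm1-/y diaphragm libraries in Myl1 (2063 CPM against 1367 and 1129), Mylpf (7353 CPM against 5581 and 4102) and Myl2 (1806 CPM against 905 and 902). It was the lowest in Myl3, at 74.0 CPM against 211 and 149. Myh3 stood at 268.7 CPM in this library against 7.35 and 61.5 CPM in the other Mtm1-/y libraries and 1.80 to 4.0 CPM in WT. Without it the log2 fold changes in edgeR were 0.36 for Myl1 (0.64 with it), 0.11 for Mylpf (0.33), 0.16 for Myl2 (0.57) and -0.45 for Myl3 (-0.78), and none passed with or without it. Summed hepatocyte markers were 1022 CPM in Mtm1-/y replicate 4, 3994 CPM in replicate 1 and 54636 CPM in replicate 2. What sets replicate 4 apart was not tested.

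Mylk4 fell short of the threshold in edgeR with tight Mtm1-/y values. Its WT libraries measured 142, 254, 227 and 103 CPM and its Mtm1-/y libraries 66.3, 58.3 and 70.6 CPM. No Mtm1-/y library reached a WT library, with a log2 fold change of -1.48 (SE 0.33, edgeR adjusted p = 0.276), and DESeq2 gave -1.46 with an adjusted p of 0.001152. Without replicate 4 the edgeR value was -1.53. The summed hepatocyte markers of these libraries ran from 575 to 44437 CPM in WT and from 1022 to 54636 CPM in Mtm1-/y diaphragm, and with liver-enriched genes left out the value was -1.48 (adjusted p = 0.1074) and none of the 8 members passed.

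Myl3, at 221, 217, 287 and 269 CPM in WT and 211, 149 and 74.0 CPM in Mtm1-/y diaphragm, had a log2 fold change of -0.78 (95% interval -1.57 to 0.02, edgeR adjusted p = 0.4761). WT replicate 2 and Mtm1-/y replicate 1 were close to each other. The fast light chains overlapped between the genotypes, Mylpf at 4516 ± 1053 CPM in WT (n = 4) and 5679 ± 1628 CPM in Mtm1-/y (n = 3), with an adjusted p of 0.7794, and Myl1 at 978 ± 227 and 1519.6 ± 485 CPM (adjusted p = 0.4808). Myl2 (812 ± 219.8 and 1204 ± 521 CPM), Mylk2 (336 ± 136 and 233 ± 16.2 CPM) and Mylk3 (30.9 ± 5.38 and 26.3 ± 1.48 CPM) overlapped as well. In the diaphragm no gene of the lists of fast, slow and immature fibres, of other light chains, kinases and phosphatase, or of cell markers passed in edgeR. Calm2 and Calm3 had log2 fold changes of -0.09 and -0.07 there.

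**Figure D3:**
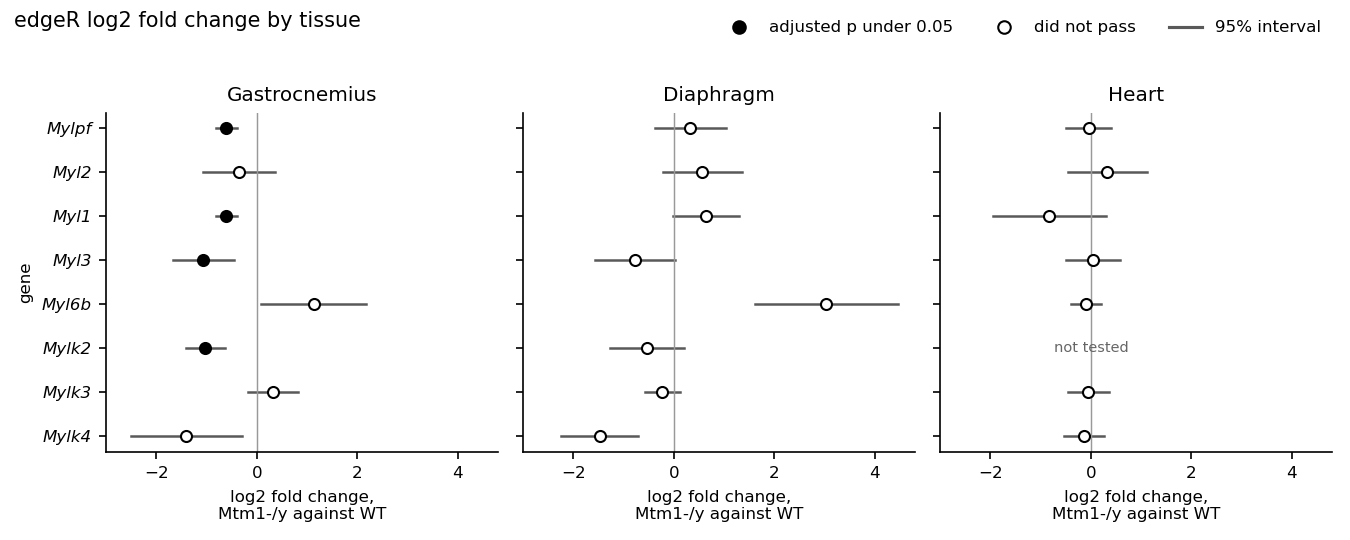
The edgeR log2 fold change of Mtm1-/y against WT (x axis) for each member (y axis) in 3 tissues, with its 95% interval as a line. Filled points passed at an adjusted p under 0.05, which were Mylpf, Myl1, Myl3 and Mylk2 in the gastrocnemius. The diaphragm intervals of Myl6b and Mylk4 do not reach 0, and the heart intervals all do.

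In the heart none of the 7 members tested passed, and Mylk2, at 5 to 29 counts per library, was too low to be tested. Of all 15238 genes 0.00656% passed. None of the 7 members had an unadjusted p under 0.05, against 8.88% of genes, and none passed in DESeq2. None of the 8 members separated the genotypes without overlap, as 4.26% of genes did.

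The ventricular light chains were the most abundant members of the heart. Myl2 measured 7274, 8445, 7081 and 2162 CPM in WT and 8361, 6725, 8096 and 8193 CPM in Mtm1-/y hearts. WT replicate 4 held less than the rest of its group, and Myl3 was lowest in it too, with 3072, 4079, 3024 and 1654 CPM in WT and 2613, 3311, 3158 and 3073 CPM in Mtm1-/y hearts. Folds on the log2 scale were 0.33 for Myl2 (95% interval -0.46 to 1.12, edgeR adjusted p = 0.6929) and 0.04 for Myl3 (95% interval -0.49 to 0.57, adjusted p = 0.9507). Without WT replicate 4 they were 0.05 and -0.16, and neither passed.

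Atrial genes were high in the library in which Myl2 and Myl3 were low. Myl7, the atrial regulatory light chain, measured 883, 44.9, 692 and 5363 CPM in WT hearts and 4.77, 1268, 1.27 and 9.25 CPM in Mtm1-/y hearts. The 8 atrial markers together summed to 832 to 35356 CPM in WT and 209 to 6078 CPM in Mtm1-/y libraries, with the highest in WT replicate 4, whose Nppa, an atrial hormone gene, was at 20622 CPM. Mtm1-/y replicate 2, the next highest in Myl7, was the lowest of its group in Myl2 but the highest in Myl3 (3311 CPM). The lowest Myl3 of that group was in replicate 1 (2613 CPM), where Myl7 was at 4.77 CPM. The part of atrial tissue in these values was not tested.

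**Figure D4:**
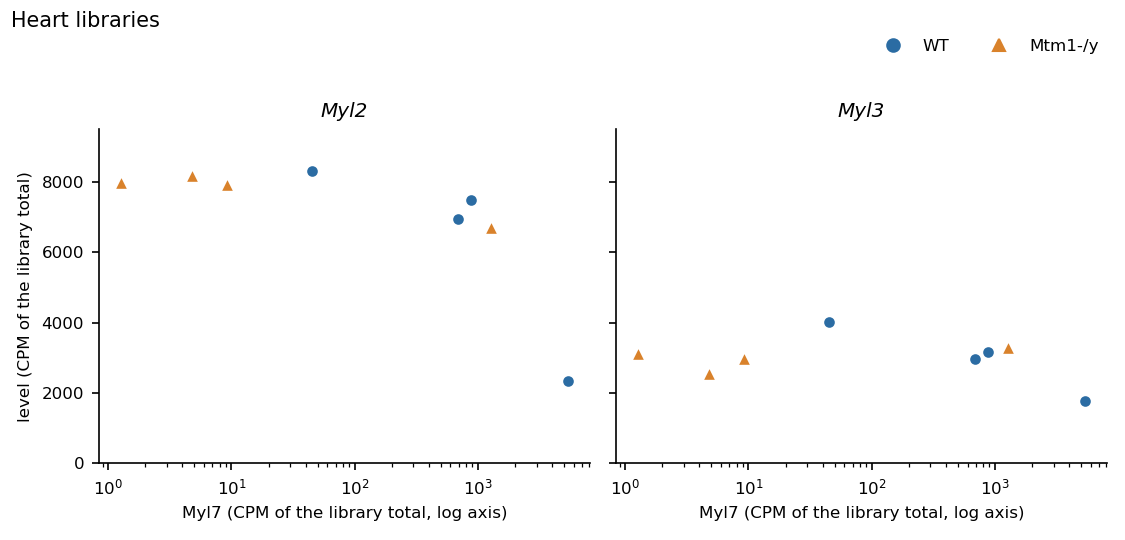
Myl2 and Myl3 (y axis, CPM of the library total) against Myl7 (x axis, the same unit on a log axis) in the 8 heart libraries, with circles for WT and triangles for Mtm1-/y. The library with the most Myl7 (5363 CPM) has the least Myl2 (2332 CPM) and the least Myl3 (1784 CPM).

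The kinases of the heart did not differ detectably. Mylk3, the cardiac light chain kinase, measured 627, 623, 853 and 869 CPM in WT and 705, 941, 648 and 577 CPM in Mtm1-/y hearts, with a log2 fold change of -0.05 (95% interval -0.45 to 0.36, edgeR adjusted p = 0.9156). Mylk4 gave 208, 301, 229 and 321 CPM against 181, 246, 254 and 281 CPM (log2 fold change -0.14, 95% interval -0.53 to 0.25). These intervals exclude a change of 1 on the log2 scale in either direction.

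The skeletal members were present in the heart at low levels. Myl1 was at 8.63, 8.06, 6.36 and 16.7 CPM in WT and at 2.89, 7.87, 9.67 and 2.07 CPM in Mtm1-/y hearts, highest in WT replicate 4, and did not pass (log2 fold change -0.83, edgeR adjusted p = 0.56, and -0.45 without that library). Mylpf stayed between 1.28 and 2.02 CPM and Myl6b between 2.32 and 2.69 CPM over all 8 hearts. In none of the lists of other light chains, kinases, regulators and phosphatase did a gene pass in the heart.

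In the liver, which is no muscle, the members were low, and Myl2, Myl3, Mylk2 and Mylk4 were near the limit of counting. Mylpf had 79 to 94 counts per library in WT and 60 to 425 in Mtm1-/y liver. None of the 5 members tested passed, as no gene of the 14305 did (0%). There were 606 genes, 4.24%, with an unadjusted p under 0.05, and Myl2 was the only member among them, as it was the only one to pass in DESeq2 (adjusted p = 0.0247). It had 0 to 1 counts in WT libraries and 3 to 63 in Mtm1-/y libraries, with no overlap, as in 6.09% of genes tested. Myl3, too low to be tested, had 0 to 3 counts in WT and 3 to 13 in Mtm1-/y libraries. Myh6 was at most at 0.133 CPM in WT liver and at 0.0371, 1.89, 1.58 and 1.41 CPM in Mtm1-/y liver, and the 10 cardiomyocyte markers summed to 3.37 to 4.47 CPM in WT and 3.41 to 8.36 CPM in Mtm1-/y. Their part in the Myl2 and Myl3 counts was not tested. Mylpf was at 2.06, 3.03 and 2.97 CPM in WT and at 4.17, 15.4, 1.95 and 1.64 CPM in Mtm1-/y liver, and Mtm1-/y replicate 2 was also the highest library in Myl1 (3.11 CPM) and Myl2 (2.28 CPM). The 15 fast fibre genes summed to 77.4 to 82.4 CPM in WT and to 62.9 to 162 CPM in Mtm1-/y liver.

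Whether the effect of genotype differed between tissues was tested on pairs of tissues. Between heart and gastrocnemius 1 of 8 members passed, against 19.8% of 16627 genes. Mylpf had a difference of 0.58 on the log2 scale (SE 0.19, edgeR adjusted p = 0.04386), from -0.61 in the gastrocnemius and -0.05 in the heart. For Mylpf that call was lost when any 1 of 12 of the 16 libraries was left out, with adjusted p values up to 0.1122, with no filter on low counts (adjusted p = 0.1348) and with library totals, where the difference was 0.16 (adjusted p = 0.4613). In the heart the gene rests on 34 to 51 counts per library. Myl3 had a difference of 1.12 (adjusted p = 0.05984) and passed in DESeq2, with DESeq2 size factors in edgeR, and without WT replicate 3 or Mtm1-/y replicate 1 or 2 of the gastrocnemius, or WT heart replicate 2 (1.25 to 1.32). Mylk4 passed without Mtm1-/y gastrocnemius replicate 4, at 2.16 (adjusted p = 0.0005607). Over the 16 libraries left out in turn the edgeR adjusted p ran up to 0.1137 for Myl3 and up to 0.2313 for Mylk4.

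The effects in heart and diaphragm differed for no member, against 0.00573% of genes, and 10.6% of genes had an unadjusted p under 0.05, among them Myl6b, Mylk4 and Myl1. Myl6b had the largest difference at -3.11 (SE 0.61, edgeR adjusted p = 0.1693), and it passed without Mtm1-/y diaphragm replicate 2 (-3.46, adjusted p = 0.01244) or 4 (-1.95, adjusted p = 0.02569). Over the 15 libraries left out in turn its edgeR adjusted p ran up to 0.3481. Mylk4, at 1.36 (adjusted p = 0.2085), was the one that passed in DESeq2 (adjusted p = 0.03809). For gastrocnemius against diaphragm no member passed, against 0.28% of genes, and 12.8% of genes had an unadjusted p under 0.05, among them Myl1, Mylpf, Myl6b and Mylk3. Myl1 differed by -1.23 (SE 0.29, edgeR adjusted p = 0.1074) and Mylpf by -0.92 (SE 0.30, adjusted p = 0.2428), and both passed in DESeq2 with adjusted p values of 0.002151 and 0.03219. In edgeR the fall of Mylpf and Myl1 in the gastrocnemius was not shown to differ from their change in the diaphragm. The 3 contrasts share libraries, and whether tissues came from the same mice is not given in the sources used here, so they were fitted as if they did not.

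Ratios of 2 transcripts within a library do not depend on the scaling between libraries. In the gastrocnemius Myl2 made up 0.67% to 2.08% of the regulatory pair Myl2 and Mylpf in WT libraries, and 1.09% to 2.24% in Mtm1-/y libraries, per exonic length. In the diaphragm it made up 7.16% to 10.6% in WT and 8.11% to 11.8% in Mtm1-/y, and in the heart 99.86% to 99.97%. None of the 3 tissues showed a difference between the genotypes in this ratio (exact permutation tests, two-sided, adjusted p of 0.514286, 0.353571 and 0.353571 over 9 tests).

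The essential pair shifted in the diaphragm without passing. Myl3 made up 21.4%, 16.1%, 19.6% and 26.9% of Myl3 and Myl1 in the WT diaphragm libraries and 13.6%, 11.8% and 3.51% in Mtm1-/y. All 3 Mtm1-/y libraries were below all 4 WT libraries, and the log2 ratio differed by -1.51 (exact permutation p = 0.0571, the smallest that 4 against 3 allows, adjusted p = 0.257). Without Mtm1-/y replicate 4 the difference was -0.85. In the gastrocnemius the same ratio overlapped, with Myl3 at 4.64% to 8.84% in WT and 3.34% to 6.67% in Mtm1-/y.

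Among the kinases, Mylk4 made up 21.9%, 15.8%, 20.4% and 11.9% of Mylk4 and Mylk2 in the WT diaphragm and 9.59%, 9.46% and 9.99% in Mtm1-/y. The log2 ratio differed by -0.95 with no overlap (exact permutation p = 0.0571, the smallest possible, adjusted p = 0.257). In the gastrocnemius Mylk4 made up 22.8% to 30.2% of the pair in WT. It made up 13.9%, 13.7% and 15.05% in Mtm1-/y replicates 1 to 3 and 37.3% in replicate 4. The log2 ratio there differed by -0.71 with all libraries (exact permutation p = 0.143) and by -1.17 without replicate 4 (p = 0.0571, the smallest possible). In the heart, where Mylk2 rests on few counts, the ratio did not pass (adjusted p = 0.353571).

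**Figure D5:**
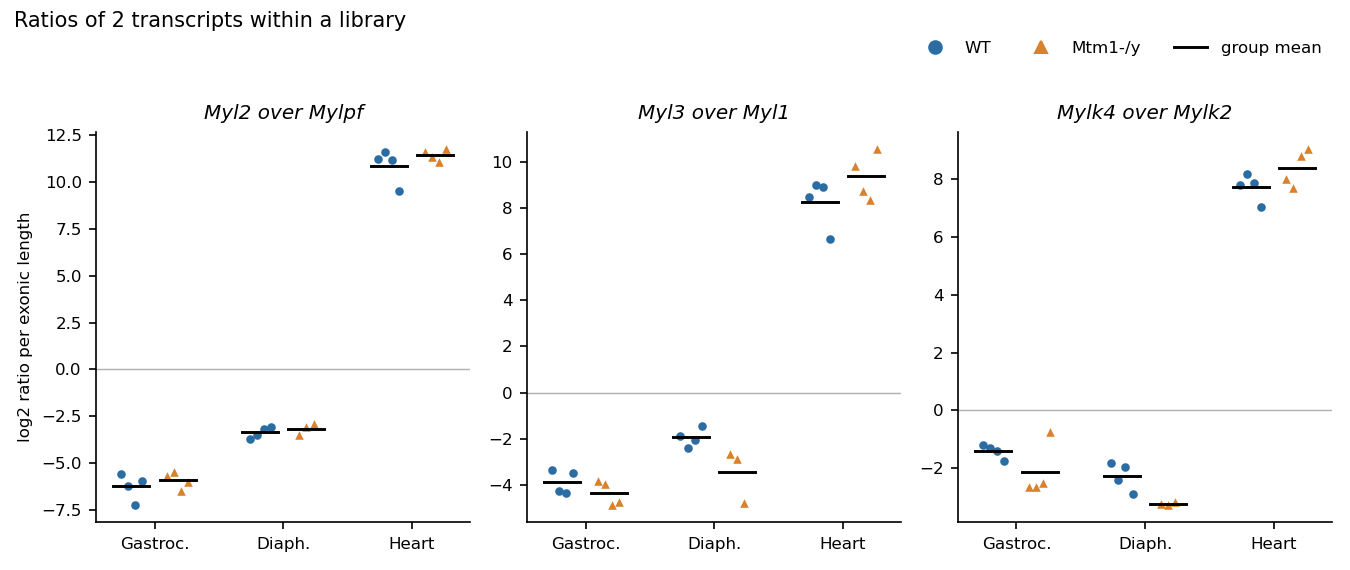
Log2 ratio per exonic length of Myl2 over Mylpf, Myl3 over Myl1 and Mylk4 over Mylk2 (y axes) in each library of 3 tissues, with circles for WT, triangles for Mtm1-/y and black bars for means. The heart lies above 0 and the skeletal muscles below it in each ratio, and in the diaphragm the Mtm1-/y values of the last 2 ratios lie below all WT values.

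The genes whose pattern was most like that of each member were taken over the 23 striated muscle libraries, among 10916 genes of at least 5 CPM. These correlations rest mostly on the differences between the 3 tissues, whose libraries share a tissue, and are a description. Mylpf was most like Ampd1 (Pearson r of log2 CPM 0.999), the adenosine monophosphate deaminase of skeletal muscle, and Neurl1a (0.999). Myl1 was like Asb16 (0.993), and Mylk2 like Myoz1 (0.998), a Z-disc protein of fast fibres, and Asb16 (0.997). Mylk3 was most like Cobll1 (0.992) and Mfhas1 (0.99), and Mylk4 had the lowest best match, with Pcyt1a (0.944) and Acvr1b (0.937).

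The slow and developmental members were matched as follows. Myl2 was most like Gm45670 (r = 0.973) and Ift81 (0.971), Myl3 was most like Mmp15 (0.967) and Pde1c (0.965), and Myl6b was most like Actr1b (0.956) and Myh3 (0.954). Myh3 is the embryonic heavy chain, and in both skeletal muscles its lowest Mtm1-/y library was above its highest WT library. In the diaphragm Myl6b and Myh3 were both highest in Mtm1-/y replicate 4, and in the gastrocnemius the highest library of Myl6b was replicate 1 while that of Myh3 was replicate 4.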

How the data were processed

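Gene expression of 4 organs of 5-week-old mice was read as 1 table of raw counts for 36103 genes in 30 libraries. The authors made these deposited counts from single-end reads of a stranded poly(A) library, which they trimmed with cutadapt 1.10, aligned to mm10 with STAR 2.5.3a and counted per gene with htseq-count 0.6.1p1. The strand setting of the counting is not given in the sources used here. Groups were taken from the labels. Libraries of a group were taken as separate mice, and those of different tissues were treated as independent, although they may share mice. The check for duplicated libraries found none.

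All further values were computed for this report in R 4.3.3. The main test was edgeR 4.0.16 (quasi-likelihood F test) within each tissue, or on a pair of tissues for the contrasts, after filterByExpr at a count minimum of 10 and TMM scaling, with Benjamini-Hochberg adjustment over all genes tested. This differs from the study, which used DESeq2. DESeq2 1.42.0 was an alternative here, as were other scalings and filters, limma 3.58.1 (voom with sample weights), 1 fit of all 30 libraries, the replicate number as a block, liver-enriched genes left out and each library left out in turn. Scaling by the library total alone was added after the data were seen. Ratios added 0.5 to counts and used exact permutation tests, and figures were drawn with matplotlib. The fits were tested on simulated counts. Exonic lengths and gene positions came from GENCODE M21 and promoters from RefSeq.

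The members and gene lists were chosen with earlier results of these data known. Named are all members, from each list and tissue at most 4 genes that passed, by p, and where none passed the 2 of highest mean CPM, the 2 genes most like each member, and Mtm1, Alb, Myh6, Myh4 and Myh7 as checks. Named outside that rule after their values were seen are some markers (Tnni3, Myl7, Nppa, Nkx2-5), Myh1, Myh2 and Actc1 as exceptions in their lists, and Myh3 as a match of Myl6b. Also named in that way are Ppp1r12b, most of the kinase list and the slow fibre genes that did not pass. Some genes that the rule names are not reported here.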

Additional observations from a re-analysis of the deposited data

Results flagged for a closer look

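A library was looked at again where it stood far from the rest of its group, which was checked in 63 groups of members and ratios. In 4 of them a library did, and chance gives about 1 in 20. The Mtm1-/y diaphragm and the WT liver, with 3 libraries each, were not checked. In the gastrocnemius, Mylk4 was at 1256 CPM in Mtm1-/y replicate 4, with 238 to 341 CPM in the other 3 Mtm1-/y libraries. The log2 ratio of Mylk4 over Mylk2 was -0.75 in the same library, against -2.65 to -2.50 in the others. In the heart, Myl2 was at 6725 CPM in Mtm1-/y replicate 2 against 8096 to 8361 CPM, and Mylk2 was at 0.919 CPM in WT replicate 4 against 0.338 to 0.381 CPM. Both of these heart libraries had the highest Myl7 of their group. The effect of genotype on Mylpf differed between heart and gastrocnemius by 0.58 on the log2 scale (edgeR adjusted p = 0.04386), in the test of the difference itself, a call that most left-out libraries removed.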

How the results depend on the processing

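Settings were changed one at a time. In the gastrocnemius 4 members passed. The count was 2 with an absolute log2 fold change over 1 also required and 1 (Myl3) with all 30 libraries in one fit, and it was 4 to 5 over the left-out libraries. With scaling by the library total alone, chosen after the data were seen, 6 passed, with Myl6b and Mylk3 added. That scaling moved the median log2 fold change of all genes in this muscle from 0.0155 to 0.351 and the share of higher calls from 48.5% to 92.2%. In the diaphragm, with 0 in the main test, 2 passed in DESeq2 (Myl6b and Mylk4) and 1 (Myl6b) with all 30 libraries in one fit. In the liver, also with 0, Myl2 was the 1 that passed in DESeq2 and with all 30 libraries in one fit. No setting made a member pass in the heart.

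For the difference in genotype effect, 1 member passed between heart and gastrocnemius. The count was 2 with DESeq2 size factors and in DESeq2. With library totals it was 1, Myl6b (-1.61, edgeR adjusted p = 0.04586) in place of Mylpf. It was 0 with no filter, with a log2 difference over 1 required, or with a replicate block, and 0 to 2 over the left-out libraries. Between heart and diaphragm it was 1 in DESeq2 and 0 to 1 over the left-out libraries, and between gastrocnemius and diaphragm 2 in DESeq2, where the main count was 0 for both.

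The same replicate numbers did not deviate together (correlations across genes from -0.04 to 0.10 in the gastrocnemius, -0.64 to 0.46 in the diaphragm, -0.55 to 0.26 in the heart and -0.05 to 0.34 in the liver), so the numbers were not taken as pairs. With the replicate block 6 members passed in the gastrocnemius, with Myl6b (1.36, edgeR adjusted p = 0.03059) and Mylk4 (-1.76, adjusted p = 0.03764) added.

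Over single members, 502 values under other settings and 899 under left-out libraries kept their direction and their side of the threshold. Signs turned for 5 values under other settings, none of which passed, and the cause was not tested. These were Myl3 in the heart (-0.0025 with library totals, -0.050 in limma voom), Mylk4 in the heart (0.066 in limma voom), Myl1 in the liver (-0.38 in limma voom) and Mylk2 between heart and gastrocnemius (-0.28 with library totals). Left-out libraries turned the sign of 21 values of 11 results, none of which passed. In the heart Mylpf ranged from -0.20 to 0.030, Myl3 from -0.16 to 0.24 and Mylk3 from -0.20 to 0.043. In the liver Myl1 ranged from -0.16 to 1.54 and Mylpf from -0.064 to 1.42. Between heart and gastrocnemius Myl1 ranged from -0.61 to 0.16 and Mylk2 from -0.18 to 0.61. Between heart and diaphragm Myl2 ranged from -0.51 to 0.20 and Mylk2 from -0.67 to 0.13, and between gastrocnemius and diaphragm Myl3 from -0.60 to 0.11 and Mylk4 from -0.78 to 0.33.

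Counts of all genes called moved by over 1.5 times under several settings. In the gastrocnemius it was 4479, with 2925 in the fit of all 30 libraries and 8294 with library totals. In the diaphragm it was 2, with 438 in DESeq2, 274 in the fit of all 30 libraries, 9 in limma voom, 4 without liver-enriched genes and 0 with the replicate block. In the heart it was 1, with 85 in DESeq2 and 5 in the fit of all 30 libraries, and in the liver 0, with 25 in DESeq2, 14 in the fit of all 30 libraries and 8 with no filter. For the genotype effect it was 49 between gastrocnemius and diaphragm (376 in DESeq2, 273 with library totals, 27 with no filter, 11 with the block), 1 between heart and diaphragm (217 in DESeq2, 4 with the block) and 3297 between heart and gastrocnemius (6982 with library totals). Library totals also moved the share of higher calls and the median of all genes, from 50.1% to 5.8% and from -0.03 to -0.44 for the effect between heart and gastrocnemius, and from 59.2% to 94.9% and 0.03 to 0.31 between gastrocnemius and diaphragm. For WT heart against WT gastrocnemius they went from 54.6% to 79.8% and 0.11 to 0.67, and for WT gastrocnemius against WT diaphragm from 42.8% to 12.8% and -0.09 to -0.58. DESeq2 gave no adjusted p for Myl6b in WT heart against WT diaphragm. Depth limited the heart values of Mylk2, Mylpf and Myl6b and all members in the liver.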
